A study of Mus musculus with 4 samples.

Results

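The Pax genes encode transcription factors that bind DNA through a paired domain, and they were read here as the 8 mouse genes *Pax1*, *Pax2*, *Pax3*, *Pax5*, *Pax6*, *Pax7*, *Pax8* and *Pax9*. Every probe set that the array annotation assigns to exactly 1 of these genes was taken. This gave 19 of the 45037 non-control probe sets and 7 of the 18193 genes with a named probe set. *Pax2* had no such probe set and was not analysed here. Signals come from 4 single-colour arrays (Affymetrix Mouse Genome 430 2.0) hybridised with RNA of *Hand2*NC heads at E12.5, wild-type heads at E12.5, *Hand2*NC whole bodies at E11.5 and wild-type whole bodies at E11.5. *Hand2*NC embryos carry the *Hand2* CAT/+ transgene and *Wnt1-Cre*. In this line the ubiquitous CAG promoter drives *Hand2* once Cre has removed a floxed CAT cassette, and *Wnt1-Cre* acts in the neural crest and also in the dorsal neural tube. The controls were littermates without the mutant genotype, and all embryos had a mixed C57BL/6J x ICR background. RNA of several embryos was pooled before hybridisation. With 1 array in each group, no difference had a replicate check and no p-value was computed. The sources name the E11.5 tissue differently, since the labels give the whole body and a figure legend of the study gives heads.

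Pax factors fall into subfamilies by their other domains. *Pax1* and *Pax9* have no homeodomain and mark the sclerotome, the pharyngeal pouches and, for *Pax9*, the mesenchyme of teeth and palate. *Pax3* and *Pax7* have a full homeodomain and mark the dorsal neural tube, the neural crest and the progenitors of skeletal muscle. *Pax6* also has a full homeodomain and directs the development of the eye, the forebrain and the pancreatic islets. *Pax2*, *Pax5* and *Pax8* keep a partial homeodomain and act at the midbrain-hindbrain boundary and in the ear, kidney, thyroid and B cells. In jaw development, *Pax9* and *Pax3* are of interest because both are active in the facial mesenchyme that *Hand2* patterns.

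The sequences before the start sites of *Pax6*, *Pax7* and *Pax1*, whose brightest probe sets spanned the widest range over the arrays among the 5 Pax genes above the signal filter defined below, and of the jaw gene *Pax9* are given here so that they can be read beside their array values. Each is the 250 bases before a start in the RefSeq promoter table (GRCm38.p6), written 5' to 3' on the strand of the gene. The stretches of *Pax1*, *Pax7*, *Pax9* and the second *Pax6* start lie within the bounds of the gene in RefSeq. Each of these thus precedes an inner start and not the outermost one. Capitals mark matches to the E-box CANNTG, the class of site bound by bHLH factors such as Hand2. The motif reads the same on both strands as a pattern, and no other motif was searched.
Pax6 at the first start, chr2:105668646-105668895, plus strand: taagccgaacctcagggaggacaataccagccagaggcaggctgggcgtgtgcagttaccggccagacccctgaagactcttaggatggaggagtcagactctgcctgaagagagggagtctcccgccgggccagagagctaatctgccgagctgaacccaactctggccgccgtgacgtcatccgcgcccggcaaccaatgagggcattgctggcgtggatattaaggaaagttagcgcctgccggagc
Pax6 at the second start, chr2:105682213-105682462, plus strand: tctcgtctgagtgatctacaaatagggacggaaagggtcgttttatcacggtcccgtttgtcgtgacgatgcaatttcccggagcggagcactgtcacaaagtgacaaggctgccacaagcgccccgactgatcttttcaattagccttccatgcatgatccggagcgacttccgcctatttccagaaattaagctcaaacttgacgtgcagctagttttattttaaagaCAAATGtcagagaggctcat
Pax7, chr4:139832969-139833218, minus strand: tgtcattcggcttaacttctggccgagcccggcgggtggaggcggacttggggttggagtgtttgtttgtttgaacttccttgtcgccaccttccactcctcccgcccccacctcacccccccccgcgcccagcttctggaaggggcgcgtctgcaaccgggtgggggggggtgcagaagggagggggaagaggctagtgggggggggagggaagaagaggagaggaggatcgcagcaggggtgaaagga
Pax1, chr2:147364744-147364993, plus strand: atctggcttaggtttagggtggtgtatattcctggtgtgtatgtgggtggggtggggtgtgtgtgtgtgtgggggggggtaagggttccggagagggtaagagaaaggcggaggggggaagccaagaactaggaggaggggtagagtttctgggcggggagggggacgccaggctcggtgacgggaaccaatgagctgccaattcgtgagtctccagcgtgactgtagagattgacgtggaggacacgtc
Pax9, chr12:56695221-56695470, plus strand: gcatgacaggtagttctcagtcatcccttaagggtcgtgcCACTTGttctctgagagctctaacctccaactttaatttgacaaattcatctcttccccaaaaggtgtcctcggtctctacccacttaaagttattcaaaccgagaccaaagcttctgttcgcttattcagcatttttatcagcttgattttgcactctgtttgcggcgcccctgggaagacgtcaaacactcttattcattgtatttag
The RefSeq table held 7 entries for 6 of the Pax genes with a probe set. Of these, 3 held 1 match each, in *Pax5*, *Pax9* and the second start of *Pax6*, and 4 held 0. Of all 32851 entries of the same length, 66.2% held at least 1. A match of these letters is a description and not a binding site.

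The deposited values are MAS5 signals, an intensity on a linear scale with 1 value for each probe set. Each array was scaled to the same trimmed mean. A probe set was read as above the signal filter in a comparison when the brighter of its 2 arrays reached the median of that array. These medians were 102 in *Hand2*NC heads, 106 in wild-type heads, 101 in *Hand2*NC bodies and 97.2 in wild-type bodies. Where a gene had several probe sets, the one brightest on average (mean of log2 signals) stood for it. Of the 19 Pax probe sets, 7 reached the median on all 4 arrays, 3 on some of them and 9 on none. Signals of different probe sets were not compared with each other. As a scale for single changes, a local spread was computed: the scaled median absolute deviation of changes among 500 genes of similar brightness in that comparison. It mixes array noise with true differences and is no replicate error.

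**Figure D1:**
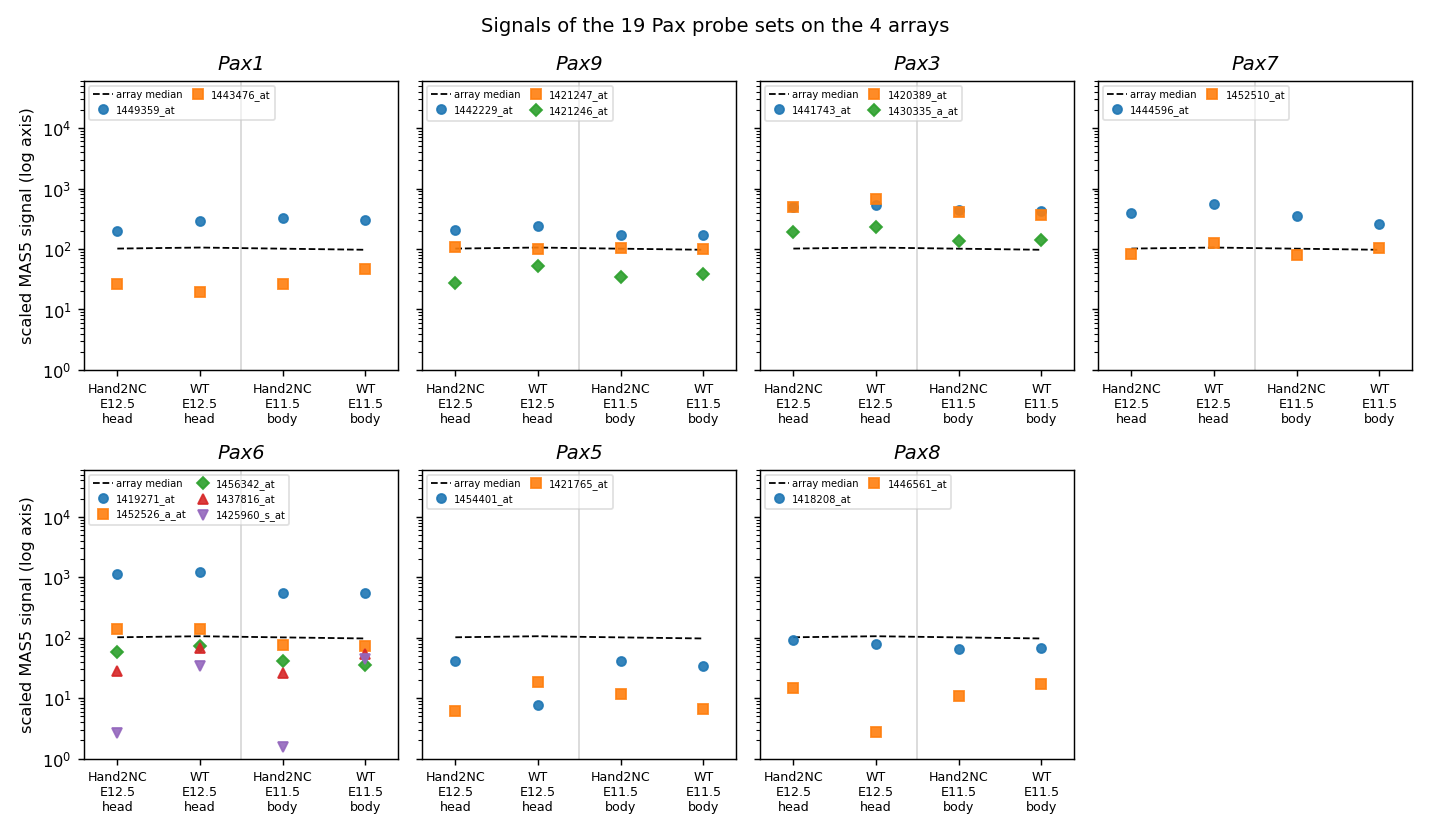
Scaled MAS5 signal (log axis) of every Pax probe set on the 4 arrays, 1 panel for each gene and 1 symbol for each probe set, with the array median as a dashed line. All points of *Pax5* and *Pax8* lie below the median, and the brightest *Pax6* probe set is higher on both head arrays (1148 and 1220) than on both body arrays (540 and 547).

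The arrays carried several differences that run beside the Pax comparisons. *Hand2* itself was read by a probe set with signals of 706 in *Hand2*NC heads and 33.4 in wild-type heads, and of 314 in *Hand2*NC bodies and 67.1 in wild-type bodies. Its brightest probe set had 839 in *Hand2*NC heads and 592 in wild-type heads, and 1244 in *Hand2*NC bodies and 1214 in wild-type bodies. The *Hand2*NC head array lacked Y-linked signal, with *Eif2s3y* at 14.4 in *Hand2*NC heads and 956 in wild-type heads, while *Xist* was at 16187 in *Hand2*NC heads and 8988 in wild-type heads. The part of this sex-linked difference in the Pax differences was not tested. Of 12 trunk Hox genes, 0 reached the array median on either head array and 10 reached it on each body array, and their summed signals were 230 in *Hand2*NC heads and 279 in wild-type heads, and 5386 in *Hand2*NC bodies and 5155 in wild-type bodies. Of 14 heart muscle genes 5 reached the median on each head array and 13 on each body array, and their summed signals were 6773 to 7521 in heads and 27237 to 28443 in bodies. Of 10 liver genes 2 reached the median on each head array and 9 on each body array. Of these 9, 8 were lower and 1 was higher in heads than in bodies in each genotype. *Alb* lay at 29.1 to 33.7 in heads and at 8530 to 9010 in bodies, and the higher gene, *Ttr*, at 14209 to 17721 in heads and at 7901 to 9223 in bodies. Of 10 forebrain and eye genes 9 reached the median on every array, with sums of 10841 to 12042 in heads and 5110 to 5130 in bodies. Stage and tissue therefore cannot be told apart in any comparison of E12.5 with E11.5. In these tissues of many cell types, fewer cells of a type and less RNA in each cell cannot be told apart either.

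At E12.5, *Hand2*NC was compared with wild-type in whole heads, so the signals cannot be assigned to the forming face. All 5 Pax genes above the filter had lower signals in *Hand2*NC heads, and 0 of them passed 2-fold in either direction, beside 0.398% of all genes above the filter. *Pax1* had the lowest log2 change, at -0.58, followed by *Pax7* at -0.49, *Pax9* at -0.22, and *Pax6* and *Pax3* at -0.09 each. The median over the 5 genes was -0.22, while it was 0.00 over all genes above the filter. The differences of *Pax1* and *Pax7* were larger than the local spread, and 16.9% of all genes above the filter were lower by more than theirs. Among the 10 Pax probe sets above the filter, 8 were lower and 2 were higher in *Hand2*NC. Of the lower ones, 1452510_at of *Pax7* passed the filter through the wild-type array only. Of the higher ones, 1421247_at of *Pax9* passed it through the *Hand2*NC array only.

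At E11.5, where whole bodies were compared, the changes of the brightest probe sets were smaller in size than in heads. For *Pax7* they were nearly alike in size, at 0.47 in bodies and -0.49 in heads. Of the 5 Pax genes above the filter 0 passed 2-fold, beside 0.446% of all genes. Of these, 4 had a log2 change above 0 and 1 had a change below 0. They ranged between -0.02 for *Pax6* and 0.47 for *Pax7*, with a median of 0.07 against -0.01 over all genes. Only *Pax7* exceeded the local spread, and 16.4% of all genes were higher by more than theirs. The genotype comparisons at the 2 stages share no array.

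**Figure D2:**
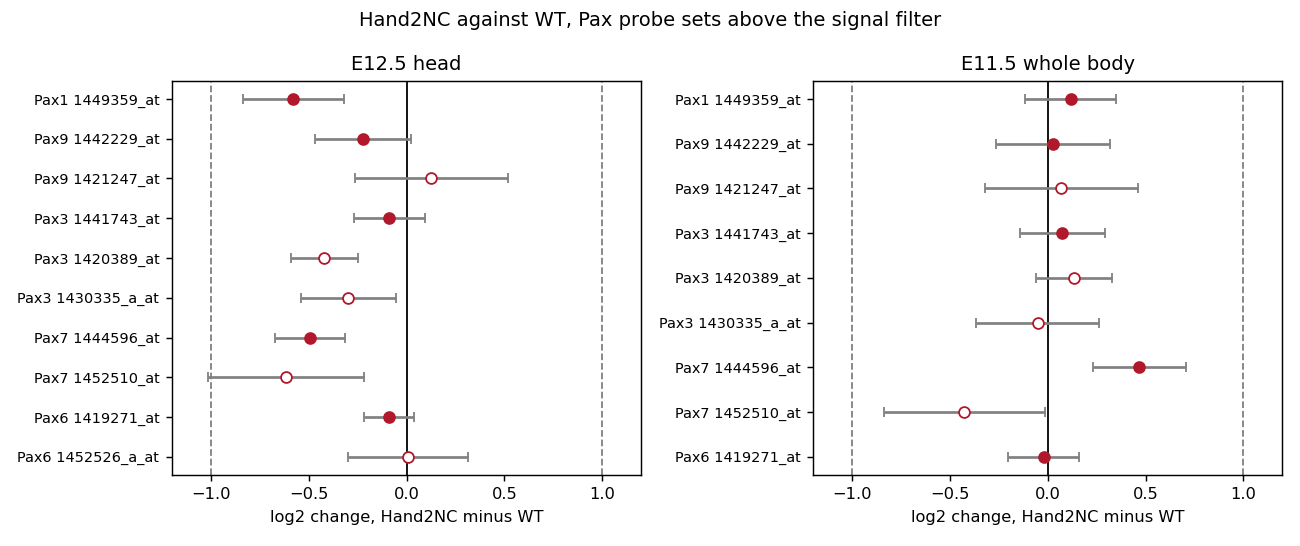
Log2 change of *Hand2*NC minus wild-type for each Pax probe set above the signal filter in E12.5 heads (left) and E11.5 whole bodies (right). Filled points are the brightest probe set of a gene, open points its other probe sets, bars the local spread, and dashed lines 2-fold. In heads the probe sets of *Pax1*, *Pax3* and *Pax7* all lie below 0, and in bodies those of *Pax7* lie on both sides, at 0.47 and -0.43.

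*Pax1*, the sclerotome factor, lies on chromosome 2 and was read by 2 probe sets. The brighter one, 1449359_at, had a signal of 198 in *Hand2*NC heads, against 296 in wild-type heads. In bodies it had 321 in *Hand2*NC and 296 in wild-type. The *Hand2*NC head array was thus the lowest of the 4, and the other 3 lay close together. The log2 change was -0.58 in heads at a local spread of 0.26, and 0.12 in bodies at a local spread of 0.23. The other probe set of *Pax1*, 1443476_at, stayed below the median on every array. It had 26.7 in *Hand2*NC heads and 19.7 in wild-type heads, and 26.3 in *Hand2*NC bodies and 46.3 in wild-type bodies. A mean over both probe sets carries these dim values, and gave -0.07 in heads and -0.35 in bodies.

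*Pax9*, which is required for tooth and palate development and lies on chromosome 12, differed little between genotypes. Its brightest probe set, 1442229_at, had a signal of 203 in *Hand2*NC heads and 238 in wild-type heads, and of 173 in *Hand2*NC bodies and 170 in wild-type bodies. The log2 changes were -0.22 in heads and 0.03 in bodies, both within the local spreads of 0.25 and 0.29. A second probe set, 1421247_at, went the other way in heads, with 110 in *Hand2*NC and 100 in wild-type, which is a log2 change of 0.13 (local spread 0.39). Its remaining probe set, 1421246_at, was below the median on all arrays, at 27.6 in *Hand2*NC heads, 53.3 in wild-type heads, 34.0 in *Hand2*NC bodies and 38.0 in wild-type bodies. The wild-type head signal of 1421247_at was below its array median, so this probe set passed the filter in heads through *Hand2*NC only. In heads the *Pax9* probe sets above the filter differed in sign, each within its local spread, so no direction is given.

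*Pax3*, a factor of neural crest and muscle progenitors on chromosome 1, was read by 3 probe sets, all above the median on every array. The brightest, 1441743_at, had signals of 505 in *Hand2*NC heads and 536 in wild-type heads, and of 447 in *Hand2*NC bodies and 425 in wild-type bodies. The next, 1420389_at, had 496 in *Hand2*NC heads, against 663 in wild-type heads. In bodies it had 406 in *Hand2*NC and 370 in wild-type. The dimmest, 1430335_a_at, had 189 in *Hand2*NC heads and 232 in wild-type heads, and 136 in *Hand2*NC bodies and 141 in wild-type bodies. All 3 were lower in *Hand2*NC heads. The log2 changes there were -0.09, -0.42 and -0.30 at local spreads of 0.18, 0.17 and 0.24, so the brightest probe set lay within the spread and the other 2 beyond it. In bodies the log2 changes of 0.07, 0.13 and -0.05 all lay within the local spread.

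*Pax7*, the close relative of *Pax3* on chromosome 4, differed between genotypes beyond the local spread at both stages by its brighter probe set, in opposite directions. The brightest probe sets of *Pax1*, *Pax3* and *Pax9* also changed sign between stages, without passing the local spread at both. Its brighter probe set, 1444596_at, had a signal of 395 in *Hand2*NC heads and 557 in wild-type heads, which is a log2 change of -0.49 (local spread 0.18). In bodies it had 353 in *Hand2*NC and 256 in wild-type, which is a log2 change of 0.47 (local spread 0.24). Both *Hand2*NC arrays thus lay between the wild-type ones. The dimmer probe set, 1452510_at, was lower in *Hand2*NC at both stages, with 81.3 in *Hand2*NC heads and 124.7 in wild-type heads, and 78.8 in *Hand2*NC bodies and 105.9 in wild-type bodies. Its log2 changes were -0.62 and -0.43 at local spreads of 0.40 and 0.41. Both *Hand2*NC signals were below the array medians, so it passed the filter only through the wild-type arrays, where it was higher. The probe sets of *Pax7* thus shared their direction in heads and opposed each other in bodies. The mean over both in bodies was 0.02.

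*Pax6*, the regulator of eye and forebrain on chromosome 2, was nearly equal between genotypes by its brightest probe set. It had 1148 in *Hand2*NC heads and 1220 in wild-type heads, and 540 in *Hand2*NC bodies and 547 in wild-type bodies. The log2 changes were -0.09 in heads and -0.02 in bodies, within local spreads of 0.13 and 0.18. The second probe set, 1452526_a_at, had 140.0 in *Hand2*NC heads and 139 in wild-type heads, and 75.1 in *Hand2*NC bodies and 72.8 in wild-type bodies. Of the 3 others, all below the median on every array, 2 were lower on both *Hand2*NC arrays than on both wild-type arrays. The share of dim probe sets with this order was not counted. Probe set 1425960_s_at had 2.67 in *Hand2*NC heads, 34.1 in wild-type heads, 1.59 in *Hand2*NC bodies and 44.8 in wild-type bodies. Probe set 1437816_at had 27.9 in *Hand2*NC heads, 67.7 in wild-type heads, 26.1 in *Hand2*NC bodies and 53.7 in wild-type bodies. At such signals the local spread reached 2.29 in heads and 2.51 in bodies for the first of them, so no fold change is given. A mean over all 5 probe sets carries these dim values, and gave -1.07 in heads and -1.13 in bodies. The signals of the fifth, 1456342_at, were 58.1 in *Hand2*NC heads, 73.0 in wild-type heads, 40.7 in *Hand2*NC bodies and 36.0 in wild-type bodies.

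*Pax5*, a factor of B cells and the midbrain-hindbrain boundary on chromosome 4, and *Pax8*, a factor of thyroid and kidney on chromosome 2, stayed below the median on every array. The brighter probe set of *Pax5*, 1454401_at, had 41.3 in *Hand2*NC heads and 7.64 in wild-type heads, and 41.4 in *Hand2*NC bodies and 33.8 in wild-type bodies. The other, 1421765_at, ranged between 6.06 in *Hand2*NC heads and 18.9 in wild-type heads. The brighter probe set of *Pax8*, 1418208_at, had 92.6 in *Hand2*NC heads and 80.2 in wild-type heads, and 66.1 in *Hand2*NC bodies and 68.2 in wild-type bodies. Its other probe set, 1446561_at, ranged between 2.80 in wild-type heads and 17.4 in wild-type bodies. No fold change is given for these genes.

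Set against E11.5 whole bodies, E12.5 heads had higher signals of most Pax genes. In *Hand2*NC, 1 of the 5 genes above the filter passed 2-fold, *Pax6*, beside 5.11% of all genes in either direction and 2.87% higher. At 1.5-fold 2 passed, *Pax6* higher and *Pax1* lower, beside 15.3% of all genes. In wild-type, 2 of the 5 passed 2-fold, *Pax6* and *Pax7*, beside 7.06% of all genes in either direction and 4.45% higher. In each genotype 4 of the 5 genes had a log2 change above 0 and *Pax1* had a change at or below 0. The median was 0.17 in *Hand2*NC and 0.49 in wild-type, while over all genes above the filter it was 0.04 in *Hand2*NC and 0.03 in wild-type. The heads differ from the bodies in stage and in tissue, and these comparisons use the same arrays as those between genotypes.

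*Pax6* had the highest change in both genotypes. Its log2 change was 1.09 in *Hand2*NC and 1.16 in wild-type, at local spreads of 0.30 and 0.34. The second probe set had 0.90 in *Hand2*NC and 0.94 in wild-type. Both head arrays lay above both body arrays for each of these probe sets. The body signals of the second, 75.1 in *Hand2*NC and 72.8 in wild-type, were below the array medians. The share of all genes with such an order was not counted.

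*Pax7* had a log2 change of 0.16 in *Hand2*NC and of 1.12 in wild-type, at local spreads of 0.35 and 0.46. In wild-type, median centring gave 1.00, just short of the 2-fold cutoff. Its dimmer probe set had 0.24 in wild-type, and in *Hand2*NC it was below the filter. The order of the brighter probe set over the arrays was wild-type heads, *Hand2*NC heads, *Hand2*NC bodies and wild-type bodies, and the *Hand2*NC arrays did not differ from each other beyond the local spread.

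The brightest probe set of *Pax3* stayed within the local spread, with log2 changes of 0.17 in *Hand2*NC and 0.33 in wild-type. Its second probe set had 0.29 in *Hand2*NC and 0.84 in wild-type, and its dimmest had 0.47 in *Hand2*NC and 0.71 in wild-type. In wild-type both of these exceeded local spreads of 0.40 and 0.54, and in *Hand2*NC neither did. *Pax9* had 0.23 in *Hand2*NC and 0.49 in wild-type, at local spreads of 0.46 and 0.53. *Pax1* had -0.70 in *Hand2*NC at a local spread of 0.45 and 0.00 in wild-type at one of 0.43.

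**Figure D3:**
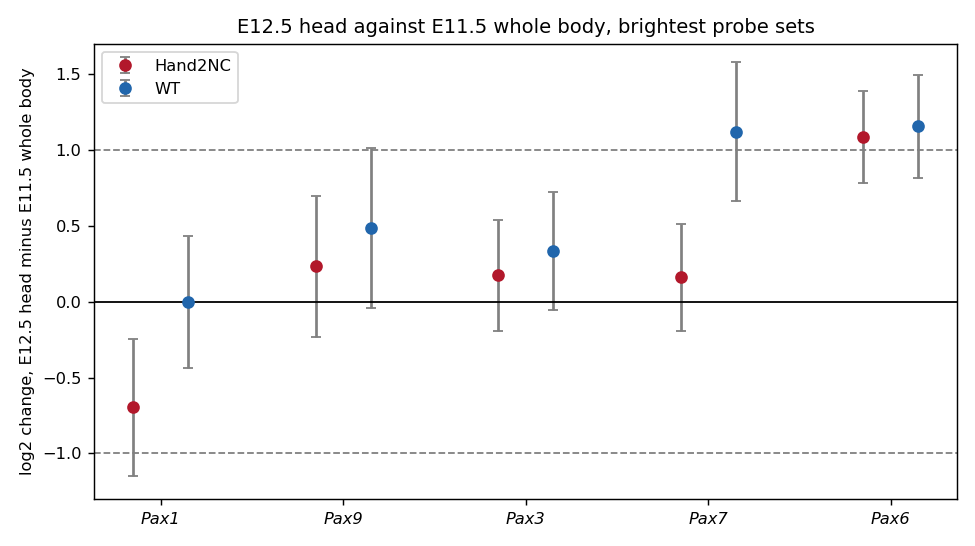
Log2 change of E12.5 head minus E11.5 whole body for the brightest probe set of the 5 Pax genes above the signal filter, in *Hand2*NC (red) and wild-type (blue). Bars are the local spread and dashed lines 2-fold. *Pax6* lies above 1 in both genotypes, *Pax7* in wild-type only (0.16 in *Hand2*NC and 1.12 in wild-type), and no difference between genotypes was tested.

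The genes whose profile over the 4 arrays was most like that of *Pax6* and *Pax7* were sought among 12247 others that reached the median on at least 1 array, by the root mean square difference of log2 signals centred on each gene. For *Pax6*, *Adgrb3*, an adhesion receptor gene of the brain, had a difference of 0.02, at 897 in *Hand2*NC heads, 972 in wild-type heads, 436 in *Hand2*NC bodies and 428 in wild-type bodies. Nearest to *Pax7* were *Camk2a*, a kinase gene of neurons, with 0.03, and *Limk1*, a kinase gene of the actin cytoskeleton, with 0.04. *Camk2a* had 266 in *Hand2*NC heads, 382 in wild-type heads, 245 in *Hand2*NC bodies and 182 in wild-type bodies. With 4 arrays many genes share a profile by this measure, and it describes the arrays only. The other Pax genes above the filter spanned less than 1 on the log2 scale over the arrays and were not matched.

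Partners, targets and co-expressed genes of the Pax factors were counted in 5 lists from general knowledge, of which some genes stand in more than 1. The lists were chosen with earlier results of these data known, so their counts are no independent check. For *Pax3* and *Pax7*, 20 of the 21 genes with a probe set were above the filter at each stage. In heads 1 of 20 passed 2-fold, *Myf5*, beside 0.398% of all genes, and 14 had a log2 change above 0, with a median of 0.13. In bodies 1 of 20 passed it, again *Myf5*, beside 0.446% of all genes, and 15 had a change above 0, with a median of 0.15. *Myf5*, a determination gene of skeletal muscle that acts downstream of *Pax3*, had 177 in *Hand2*NC heads and 81.2 in wild-type heads, and 421 in *Hand2*NC bodies and 192 in wild-type bodies. The log2 change was 1.13 in both, and the wild-type head signal was below its array median. The median of this list lay above that of all genes (0.00 and -0.01) in heads and bodies. By their brightest probe sets, *Pax3* (-0.09, within the local spread) and *Pax7* (-0.49) were lower in *Hand2*NC heads. In bodies these were higher, at 0.07 for *Pax3*, within the local spread, and 0.47 for *Pax7*. Their dimmest probe sets were lower there, at -0.05 and -0.43. Between E12.5 heads and E11.5 bodies, *Dmrt2*, a factor of the dermomyotome, had log2 changes of -1.64 in *Hand2*NC and -1.81 in wild-type, and *Myf5* had -1.25 in *Hand2*NC and -1.24 in wild-type. These were the 2 of 20 genes of the list past 2-fold, beside 5.11% of all genes in *Hand2*NC and 7.06% in wild-type. Both were lower in heads, and both wild-type head signals were below the array median.

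For *Pax1* and *Pax9*, 0 of 17 genes above the filter passed 2-fold between genotypes in heads, beside 0.398% of all genes. In bodies 0 of 16 did, beside 0.446%. The extremes in heads were *Osr2*, a factor of the palate shelves, with 77.4 in *Hand2*NC and 135 in wild-type (log2 change -0.80), and *Bmp4*, a signal of tooth and jaw, with 1116 in *Hand2*NC and 899 in wild-type (0.31). The *Hand2*NC signal of *Osr2* was below its array median. In bodies the extremes were *Foxc2*, a forkhead factor of paraxial mesoderm, at -0.18 and *Meox1*, a factor of the somite, at 0.70. The list medians were 0.04 at both stages. *Uncx*, a homeobox gene of the sclerotome, was the 1 of 17 genes past 2-fold between wild-type heads and bodies, beside 7.06% of all genes. Its log2 change was 1.05 there, and it had 0.60 in *Hand2*NC. The lowest change in *Hand2*NC was that of *Meox2*, a homeobox gene of the somite, at -0.84.

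For *Pax2*, *Pax5* and *Pax8*, 0 of 19 genes above the filter passed 2-fold between genotypes in heads, beside 0.398% of all genes, with a median of -0.08. In bodies 0 of 18 did, beside 0.446%, with a median of 0.11. *En1*, a homeobox gene of the midbrain-hindbrain boundary, was the lowest in heads at -0.64, with 83.8 in *Hand2*NC and 131 in wild-type, and *Dlx5*, a homeobox gene of the ear and ventral arches, was the highest at 0.17. The *Hand2*NC signal of *En1* was below its array median. In bodies the extremes were *Fgf18* at -0.49 and *Sall1* at 0.41. Between stages, 0 of 19 genes were past 2-fold higher in *Hand2*NC heads, beside 2.87% of all genes, and 5 of 20 in wild-type heads, beside 4.45%, with medians of 0.64 and 0.77. The wild-type genes included *Lhx5* (1.21), *En2* (1.08) and *Gbx1*. *Gbx1* had 132 in wild-type heads and 61.3 in wild-type bodies, below the median of that array, so its place past the cutoff rests on a dim value. *Wt1*, a gene of the kidney and the body cavity lining, was past 2-fold lower in heads. It had 75.2 in *Hand2*NC heads and 244 in *Hand2*NC bodies, and 25.0 in wild-type heads and 224 in wild-type bodies. Both head signals were below the array medians, so no size is given for its change. The highest change in *Hand2*NC was that of *Gata3*, a zinc finger factor of ear and kidney, at 0.98, just short of the cutoff. No difference between genotypes was tested.

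For *Pax6*, an eye list and a brain list held 18 and 16 genes above the filter in heads. Between genotypes, 0 of each list passed 2-fold at either stage, beside 0.398% of all genes in heads and 0.446% in bodies. In heads *Six6*, of retina and pituitary, had the lowest change of the eye list at -0.42 and *Hes5*, a Notch target, the highest at 0.48. In bodies the lowest was *Atoh7*, of retinal ganglion cells, at -0.88, and the highest again *Hes5*, at 0.33. In the brain list the extremes in heads were *Neurod6* at -0.46 and *Atoh1* at 0.40, and in bodies *Eomes* at -0.65 and *Olig2* at 0.62. The wild-type signals of *Atoh1* in heads (79.1) and of *Olig2* in bodies (66.3) were below the array medians.

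Between stages the *Pax6* lists had higher signals in heads, as *Pax6* had. Of the eye list, 6 of 18 genes were past 2-fold higher in each genotype, beside 2.87% of all genes in *Hand2*NC and 4.45% in wild-type, and 0 were lower, with medians of 0.64 in *Hand2*NC and 0.76 in wild-type. The lens crystallin gene *Cryaa* had 1329 in *Hand2*NC heads and 136 in *Hand2*NC bodies, a log2 change of 3.29, and 1625 in wild-type heads and 191 in wild-type bodies, a log2 change of 3.09. *Crybb3* had 2.06 in *Hand2*NC and 2.07 in wild-type, and *Cryba1* had 2.06 in *Hand2*NC and 1.92 in wild-type. *Six3*, of the anterior forebrain and eye, had 1.66 in *Hand2*NC and 2.11 in wild-type. *Atoh7* had 2.12 in *Hand2*NC and 0.84 in wild-type, under the cutoff. *Six6* was among the wild-type genes past it, with 182 in wild-type heads and 55.1 in wild-type bodies. The latter was below its array median, so the place of *Six6* past the cutoff rests on a dim value. Of the brain list, 6 of 16 genes were past 2-fold higher in *Hand2*NC and 5 of 15 in wild-type, beside the same 2.87% and 4.45%, with 0 lower in both and medians of 0.73 and 0.86. *Neurod6*, of cortical neurons, had 2.31 in *Hand2*NC and 2.56 in wild-type, *Tbr1*, of early cortical neurons, had 1.41 and 1.55, and *Dlx2*, of the ventral forebrain, had 1.38 and 1.33. *Nr2e1*, of forebrain progenitors, had 1.32 in *Hand2*NC and 0.88 in wild-type, and *Olig2*, of the ventral neural tube, had 0.73 in *Hand2*NC and 1.47 in wild-type. Where these passed the cutoff, the body signal was below its array median, at 66.8 for *Nr2e1* in *Hand2*NC and 66.3 for *Olig2* in wild-type. Forebrain and eye markers as a whole were brighter in heads, as given above.

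**Figure D4:**
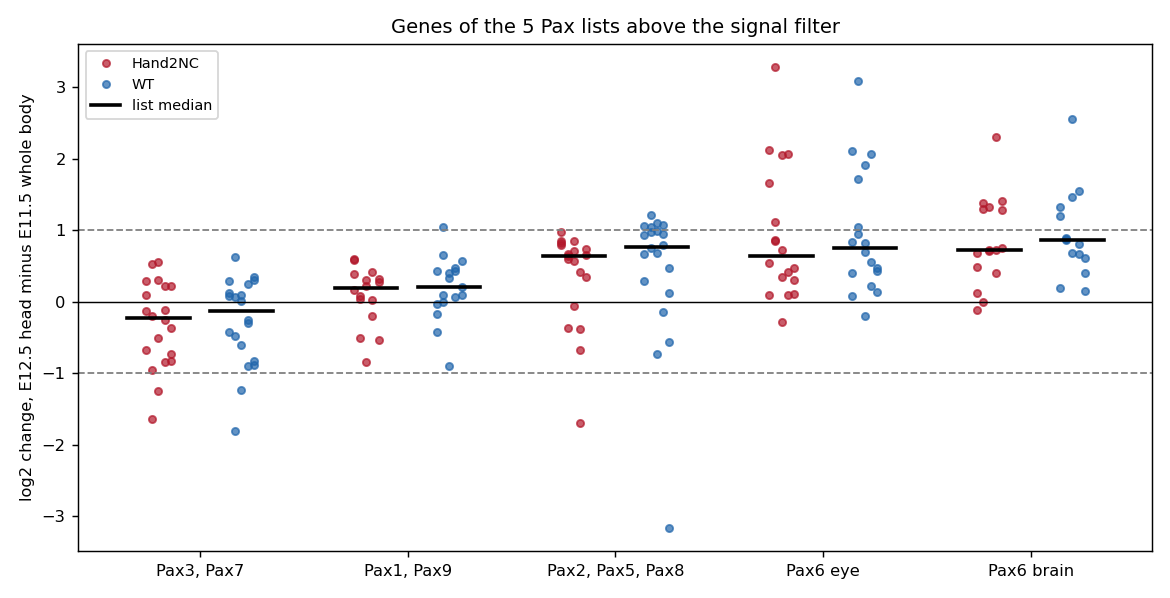
Log2 change of E12.5 head minus E11.5 whole body for the genes of the 5 Pax lists above the signal filter, in *Hand2*NC (red) and wild-type (blue), with the list median as a black bar and 2-fold as dashed lines. The medians of the eye and brain lists of *Pax6* lie between 0.64 and 0.86, and those of the *Pax3* and *Pax7* list at -0.23 in *Hand2*NC and -0.13 in wild-type.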

How the data were processed

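RNA of *Hand2*NC and wild-type embryos was pooled and hybridised to 1 array for each genotype at E11.5 and E12.5. The authors deposited 1 MAS5 intensity for each probe set and array, unlogged. The submitters' processing notes name MAS5 without a version, and no detection calls are held in the table. All 4 arrays came with a trimmed mean (2% off each end) of 498. All 4 columns matched a sample.

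After 64 control probe sets were dropped, that trimmed mean was set to 500 on every array before logarithms to base 2. Of 45037 probe sets, 34945 have 1 gene symbol in the platform annotation, 932 have several and 9160 have none. Only the first kind was used, and 34741 of them have a gene identifier in the RefSeq gene table (GRCm38.p6). That table was used for names, chromosomes and neighbouring genes, and the promoter sequences come from RefSeq on the same build. The brightest probe set stood for a gene. The filter was the array median (50th percentile) on the brighter array, and the cutoff 2-fold, which the study names. The number of arrays limits the precision, so no test was run. Counting and local spread were tested on simulated data.

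The alternatives were the unscaled values, median centring, quantile normalization, a loess fit (span 0.3), other filters (none, both arrays, 75th percentile), a floor at the array's median, other rules for several probe sets, and a 1.5-fold cutoff. Genes named are all Pax genes, up to 4 members of a Pax list past the cutoff or else its highest and lowest, the 2 most alike profiles of a Pax gene that spanned at least 1 on the log2 scale, and *Hand2*. A gene that this rule names is not reported here. The members, the lists and the rules were chosen with earlier results of these data known. Marker genes of tissue and sex, flanking genes and *Pax6os1* were named after values had been seen. Calculations ran in Python 3.11.15 with pandas 2.3.3 and numpy 2.4.6, loess came from statsmodels 0.14.6, trimmed means used scipy 1.17.1, and plots were drawn with matplotlib 3.10.9.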

Additional observations from a re-analysis of the deposited data

Results flagged for a closer look

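The difference between *Hand2*NC and wild-type for *Pax7* took opposite directions at the 2 stages, beyond the local spread at each. The log2 change of its brighter probe set at E12.5 minus that at E11.5 was -0.96. With 1 array in each group this difference was not tested. Of 11453 genes above the filter at both stages, 137 (1.2%) had a difference at least as large in size, *Pax7* included. The dimmer probe set of *Pax7* had a difference of -0.19, with *Hand2*NC lower at both stages and below the array median at both.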

How the results depend on the processing

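No paired analysis was possible because each group has 1 array and no replicate number links the groups, and no replicate could be left out. Between genotypes, 0 Pax genes passed the cutoff at E11.5 under all alternatives run. The mean over all probe sets gave -1.13 for *Pax6* there, but its mean signal was below the filter, so it was not counted. At E12.5 there was 1 without a signal filter (*Pax5*, from dim signals, 1 higher) and 1 with the mean over all probe sets (*Pax6*, 1 lower), and 0 under the others. For E12.5 heads against E11.5 bodies in *Hand2*NC, the count of 1 became 0 with the mean over all probe sets, 0 with the mean over those above the filter and 2 with a 1.5-fold cutoff, where *Pax1* joined as lower. In wild-type, the count of 2 became 3 without a signal filter (*Pax5* lower, from dim signals), 1 with median centring, 0 with the mean over all probe sets and 1 with the mean over those above the filter. This last setting was added after the data were seen. The probe set of *Pax6* 1425960_s_at, below the filter, turned the wild-type change of E12.5 against E11.5 to -0.39. The causes were not tested. Over the scalings run, the change of *Pax7* ranged between 0.41 and 0.47 at E11.5 and between -0.49 and -0.44 at E12.5, that of *Pax1* at E12.5 between -0.58 and -0.52, and those of *Pax6* between stages between 1.05 and 1.09 in *Hand2*NC and between 1.03 and 1.16 in wild-type. *Pax9* at E11.5 ranged between -0.03 and 0.03. With the mean over all probe sets, which carries dim signals, *Pax1* at E12.5 moved to -0.07. *Pax7* had 0.02 at E11.5 and -0.56 at E12.5 by that mean. Of the 19 Pax probe sets 9 were below the array median on all arrays, where signals limit what can be read.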

Other observations

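The antisense transcript gene *Pax6os1*, which neighbours *Pax6*, had 26.4 in *Hand2*NC heads and 40.8 in wild-type heads, and 25.4 in *Hand2*NC bodies and 47.1 in wild-type bodies. Both *Hand2*NC arrays thus lay below both wild-type arrays, as for the *Pax6* probe sets 1425960_s_at and 1437816_at, and all of these signals were below the array medians. The share of dim probe sets with the same order was not counted. The brightest *Pax6* probe set and 1452526_a_at lay within the local spread between genotypes at both stages.

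The nearest protein-coding genes with a probe set on either side of the 7 Pax genes, 14 in all, differed in which of them followed their Pax neighbour. Beside *Pax7*, *Igsf21* had 246 in *Hand2*NC heads and 87.0 in *Hand2*NC bodies, and 235 in wild-type heads and 108 in wild-type bodies, past 2-fold in both genotypes, where *Pax7* passed it in wild-type only. Beside *Pax1*, the endoderm factor gene *Foxa2* had 127 in *Hand2*NC heads and 179 in wild-type heads, a log2 change of -0.50, and 141 in *Hand2*NC bodies and 138 in wild-type bodies, while *Nkx2-2*, a factor of the ventral neural tube on the other side, had 0.14 in heads. Beside *Pax6*, *Rcn1* had -0.28 in *Hand2*NC and -0.17 in wild-type between stages and *Immp1l* had -0.15 and -0.49, while *Pax6* was higher. Beside *Pax9*, *Nkx2-9* stayed below the array median throughout, between 59.9 in wild-type bodies and 100.3 in *Hand2*NC heads. Of the flanking genes above the filter, 0 of 9 passed 2-fold between genotypes in bodies, beside 0.446% of all genes, and 1 of 11 in heads, beside 0.398%. This was *Gm2102* beside *Pax3*, with 59.6 in *Hand2*NC, below the array median, and 120 in wild-type, so its place past the cutoff rests on a dim value. Between E12.5 heads and E11.5 bodies, 1 of 10 was past 2-fold higher in *Hand2*NC, *Igsf21*, beside 2.87% of all genes, and 3 of 11 in wild-type, *Igsf21*, *Cacna1b* and *Gm2102*, beside 4.45%. In both, 0 were past it lower. The body signals of *Igsf21* in *Hand2*NC (87.0) and of *Gm2102* in wild-type (41.0) were below the array medians.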
